A study of Homo sapiens with 6 samples.

Results

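10 genes of the NF-kB pathway were read across the 6 libraries of the series: the subunit genes NFKB1, NFKB2, RELA and RELB, the feedback genes NFKBIA, TNFAIP3 and BIRC3, and the chemokine genes CXCL1, CXCL8 and CXCL16. They were taken by symbol and are 10 of 54644 gene rows. All 10 passed the filter on low counts, and no member row lists a second gene. The libraries came from SKBR3, a HER2-amplified breast cancer line of luminal type, transduced with the puromycin-selected lentiviral vector pLVX, either empty (CON, 3 libraries) or carrying the CTTN cDNA (CTTN, 3 libraries). Every library shares the pLVX backbone and selection, no treatment was added, and CTTN encodes cortactin, a protein that binds branched actin. Poly(A)-selected RNA was sequenced in pairs to between 34887069 and 41279816 fragments assigned to genes per library.

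NF-kB is a family of dimeric transcription factors held in the cytoplasm by IkB proteins. Ligands of TNF, interleukin and Toll-like receptors lead to IkB breakdown and the entry of RELA dimers into the nucleus, whereas receptors such as CD40 also act through NFKB2 processing and RELB. The nuclear dimers then induce their own inhibitors, NFKBIA and TNFAIP3, along with chemokines that draw neutrophils and other leukocytes, so that feedback genes and chemokine genes are read as outputs of the same pathway.

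The NF-kB dimers bind a kB element near the start of many of these genes. RefSeq promoters (GRCh38.p14, one or more windows per gene) were found for 8 of the 10 members; RELB and CXCL16 had none. The kB consensus was searched on both strands in the 250 bases before each start site, where a match on one strand may overlap a match on the other. It was present in 7 of the 12 member windows, against 5.21% of all 35116 windows, and for 6 of the 8 members. RELA and CXCL8 had no match to that consensus. A shorter run, GGAATTTCC on either strand, was chosen after the sequences had been read. It occurred in 4 members (CXCL1, CXCL8, NFKB1 and NFKBIA) and in 0.413% of all windows. The first is a count of genes, some with more than 1 window, and the second a share of single windows. Members were chosen as pathway genes, so these values carry no test. The stretches around the matches are shown because chemokine, feedback and subunit genes share these letters. Of NFKB2 the stretch at 1 start site is printed, and 2 further stretches with matches at a later start site are not. Capitals mark the kB match, or GGAATTTCC for CXCL8, positions count bases from the start site, and each sequence is written on the strand of its gene.
CXCL1 (chr4:73869294-73869344, plus strand, -79 to -69 from the start): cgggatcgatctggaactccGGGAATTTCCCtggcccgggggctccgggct
CXCL8 (chr4:73740458-73740506, plus strand, -91 to -83 from the start): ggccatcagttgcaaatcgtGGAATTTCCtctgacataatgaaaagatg
NFKB1 (chr4:102501290-102501339, plus strand, -49 to -40 from the start): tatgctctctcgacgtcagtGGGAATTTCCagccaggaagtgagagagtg
NFKBIA (chr14:35404801-35404850, minus strand, -81 to -72 from the start): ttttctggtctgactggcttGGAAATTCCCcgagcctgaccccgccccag
TNFAIP3 (chr6:137867172-137867233, plus strand, -67 to -58 and -55 to -46 from the start): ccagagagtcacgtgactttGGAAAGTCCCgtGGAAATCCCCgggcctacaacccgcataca
BIRC3 (chr11:102317265-102317314, plus strand, -199 to -190 from the start): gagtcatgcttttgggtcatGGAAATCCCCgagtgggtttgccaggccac
BIRC3 (chr11:102317329-102317378, plus strand, -135 to -126 from the start): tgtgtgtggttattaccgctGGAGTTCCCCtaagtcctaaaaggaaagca
NFKB2 (chr10:102394451-102394529, plus strand, -107 to -97 and -78 to -69 from the start): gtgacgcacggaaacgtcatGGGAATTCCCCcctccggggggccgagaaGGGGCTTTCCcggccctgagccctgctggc

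The overexpressed gene was read first. CTTN stood at 793, 1011 and 520 CPM (counts scaled to the TMM-adjusted library size) in CTTN-1, CTTN-2 and CTTN-3, and at 299, 307 and 306 CPM in CON-1, CON-2 and CON-3. Every CTTN library lay above every CON library, and CTTN-2 was the highest and CTTN-3 the lowest of the 3. The log2 fold change was 1.35 (SE 0.22, n = 3 per group, edgeR quasi-likelihood test, adjusted p = 0.025), and the row does not separate vector from endogenous transcripts. The call was lost without CTTN-1 or any 1 of the CON libraries (adjusted p 0.121 to 0.154), at fold changes of 1.33 to 1.35 on the log2 scale.

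The CTTN libraries differed among themselves in how levels moved with transcript length. Relative to the CON mean, the median log2 difference of the shortest 10% of tested genes (1441 genes, median length 686 bases) was 0.32 in CTTN-1, 0.01 in CTTN-2 and 0.76 in CTTN-3. The longest genes (median length 6374 bases) shifted by -0.41, -0.01 and -0.76 in the same libraries, whereas the CON libraries stayed between -0.06 and 0.07 in both classes. CTTN-2 carried no such shift, and CTTN-3 carried the most. For the members, changes are therefore given with all 6 libraries, without CTTN-3, and from a second fit, added after the shift was seen, in which each library's trend on length was removed. The cause of the shift was not tested.

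Markers of the line were high in all libraries. ERBB2 lay between 7443 and 8463 CPM, and KRT8, KRT18, KRT19, GRB7 and EPCAM were each at 184 CPM or more, but CDH1, the epithelial cadherin, stayed at or below 0.455 CPM. Of the leukocyte, fibroblast and endothelial markers, PTPRC, CD3E, LYZ, COL1A2, DCN and PECAM1 reached at most 0.339 CPM in any library. CDH5, an endothelial cadherin, fell from a mean of 15.8 to 5.61 CPM (log2 fold change -1.49, SE 0.17, adjusted p = 0.0084), with PECAM1 at or below 0.17 CPM and the 3 endothelial markers summing to 5.16 to 8.19 CPM in CTTN and 16.4 to 18.4 CPM in CON. The part of these markers in the changes of the members was not tested. In bulk RNA, fewer cells of a kind and less RNA per cell cannot be told apart.

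Of the 10 members, 1 rose at an adjusted p below 0.05 and none fell, against 4.46% of the 14409 tested genes called in either direction (2.43% higher and 2.03% lower in CTTN). The member called was CXCL1, which also changed by more than 1.5-fold, as did 3.32% of the tested genes among those called. An unadjusted edgeR p below 0.05 was reached by 5 members and 30.2% of all tested genes, and DESeq2 called 4 members and 14.4% of all tested genes. RELB, CXCL1 and CXCL8 (3 members) were higher in every CTTN library than in any CON library, and TNFAIP3 and BIRC3 (2 members) were lower in every one; 38.8% of all tested genes did not overlap between the groups, 19.4% in each direction. Without CTTN-2, 6 members were called (RELB, CXCL1 and CXCL8 higher, NFKB1, TNFAIP3 and BIRC3 lower) against 47.1% of all tested genes. With the length trend removed, 4 members were called (RELB and CXCL1 higher, NFKBIA and TNFAIP3 lower) against 18.4% of all tested genes, 9.81% higher and 8.61% lower. The median log2 fold change of the 10 members was -0.01, beside 0.01 for all genes tested. The members split in both directions, and the median hides that split.

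**Figure D1:**
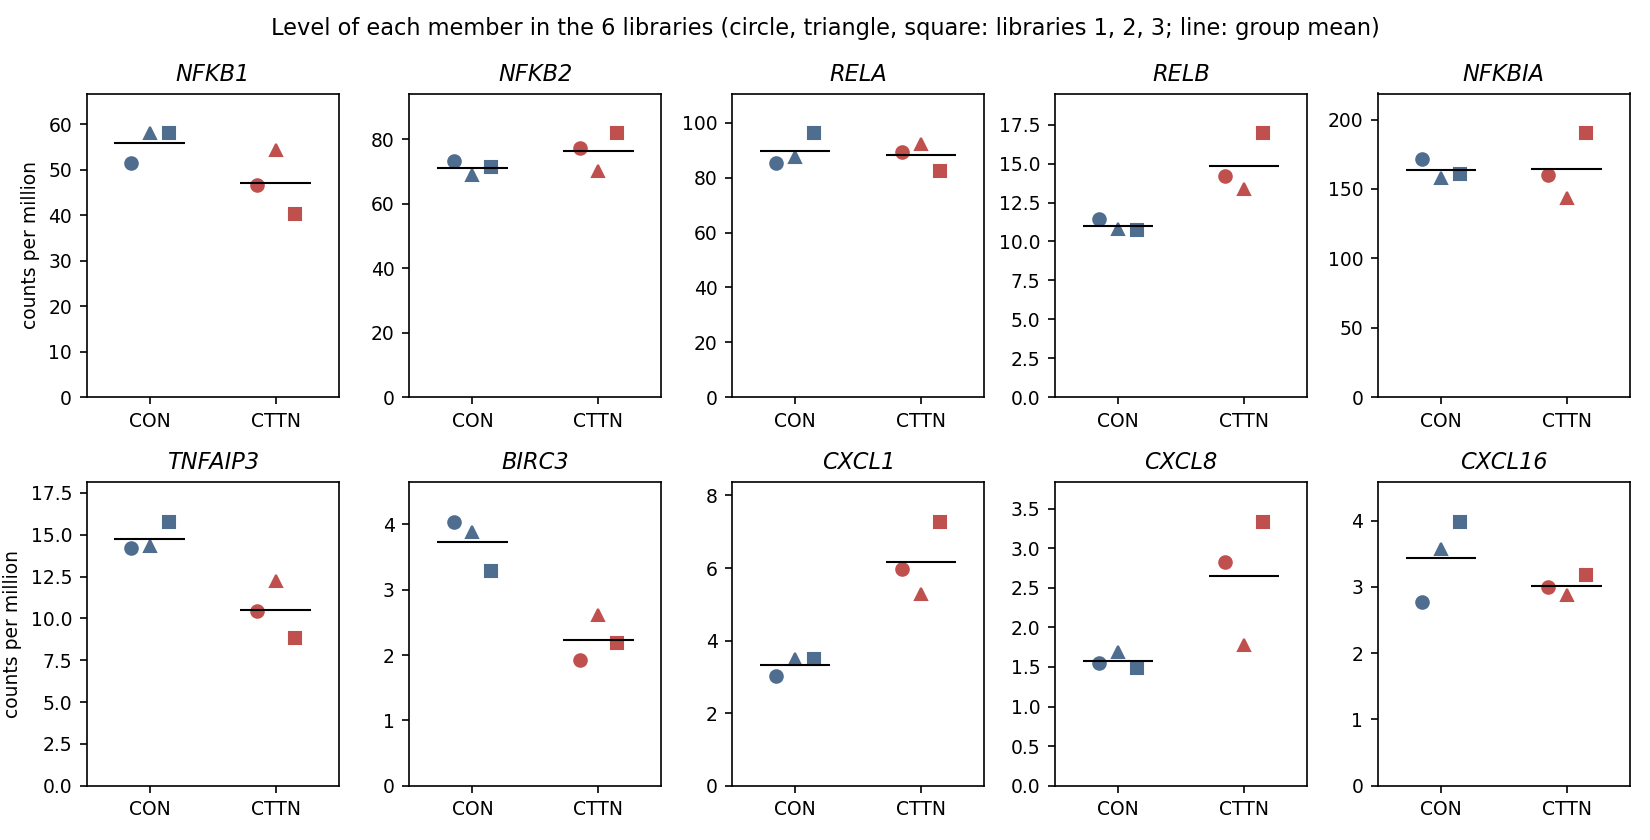
Level in CPM (vertical axis, from 0) of each of the 10 members in the 3 CON (blue) and 3 CTTN (red) libraries; circle, triangle and square mark libraries 1, 2 and 3 and the line is the group mean of 3. RELB, CXCL1 and CXCL8 sit higher and TNFAIP3 and BIRC3 lower in all 3 CTTN libraries, and the other 5 members overlap.

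RELA and NFKB1, which encode the p65 subunit and the precursor of p50 and make up the best known dimer, did not pass the test. RELA (chr11:65653596-65663094, build GRCh38 as in the deposited tables) stood at 89.6, 92.3 and 82.6 CPM in CTTN-1 to CTTN-3 and at 85.5, 87.4 and 96.3 CPM in CON-1 to CON-3. The groups overlapped, with a log2 fold change of -0.03 (SE 0.09, 95% interval -0.23 to 0.18, adjusted p = 0.848 by edgeR). With a transcript length of 2557 bases, RELA sits where the length trend is near 0, and its change was -0.02 with the trend removed and 0.02 (adjusted p = 0.894) without CTTN-3.

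NFKB1 (chr4:102501329-102617302) stood at 46.7, 54.4 and 40.2 CPM in the CTTN libraries and at 51.6, 58.1 and 58.0 CPM in the CON libraries. CTTN-2 lay within the CON range and the other two CTTN libraries below it. NFKB1 had a log2 fold change of -0.25 (SE 0.13, adjusted p = 0.213), and -0.08 (SE 0.06, adjusted p = 0.347) with the trend removed. At 3677 bases NFKB1 is among the longer members, and the trend at that length was -0.15 in CTTN-1 and -0.34 in CTTN-3. Without CTTN-3 the change of NFKB1 was -0.14 (adjusted p = 0.360), and without CTTN-2 it was called lower (-0.37, adjusted p = 0.017), with 47.1% of all tested genes.

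NFKB2 and RELB encode the p100 precursor and its partner, the dimer of the non-canonical arm. NFKB2 (chr10:102394110-102402529) stood at 77.2, 70.2 and 81.8 CPM in the CTTN libraries and 73.1, 68.7 and 71.4 CPM in the CON libraries, a log2 fold change of 0.10 (SE 0.09, 95% interval -0.10 to 0.31, adjusted p = 0.408). CTTN-2 fell inside the CON range, and the change was 0.05 (adjusted p = 0.697) without CTTN-3 and 0.12 (adjusted p = 0.252) with the trend removed. RELB (chr19:45001430-45038198) stood at 14.2, 13.4 and 17.0 CPM in the CTTN libraries, all above the 11.4, 10.8 and 10.7 CPM of the CON libraries. The log2 fold change of RELB was 0.43 (SE 0.11, 95% interval 0.17 to 0.70), with an adjusted p of 0.075 that missed the threshold.

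RELB kept its direction in every fit, but its call did not hold in all of them. In CTTN-2 alone it stood at 1.22 times the CON mean. Without CTTN-3 the log2 fold change was 0.33 (adjusted p = 0.060), and with the length trend removed it was 0.36 (SE 0.08, adjusted p = 0.020), a call that the fit on all 6 libraries did not make. RELB was also called by DESeq2 (0.43, adjusted p = 0.021) and without CTTN-2 (0.50, adjusted p = 0.0064), and was not called without CTTN-1 or any 1 of the CON libraries (adjusted p 0.221 to 0.277) or by limma (0.210 and 0.215). After its own length trend (0.08, 0.00 and 0.13) was taken off, RELB stood 0.29, 0.28 and 0.49 log2 units above the CON mean in CTTN-1, CTTN-2 and CTTN-3. REL, the fifth subunit gene, shares its row with AC010733.2 and spanned 12.3 to 34.6 CPM in the CTTN libraries and 31.2 to 38.8 CPM in the CON libraries, and it was not called (log2 fold change -0.76, SE 0.36, adjusted p = 0.191). Of the 5 subunit genes none was called with all 6 libraries, and the highest per length was RELA.

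NFKBIA encodes IkB alpha, the inhibitor that NF-kB itself resynthesizes, and it was the most abundant member per length. It stood at 160, 143 and 190 CPM in the CTTN libraries and at 171, 158 and 161 CPM in the CON libraries (chr14:35401511-35404749). CTTN-3 was the highest and CTTN-2 the lowest of all 6, so that the groups overlapped and the log2 fold change was 0.01 (SE 0.12, 95% interval -0.26 to 0.28, adjusted p = 0.965). At 1444 bases NFKBIA is short, and the length trend at that length was 0.21 in CTTN-1, 0.01 in CTTN-2 and 0.43 in CTTN-3. Taking it off left -0.24, -0.21 and -0.21 log2 units against the CON mean in the 3 libraries. The fit with the trend removed called it lower (log2 fold change -0.22, SE 0.04, adjusted p = 0.012), while CTTN-2 alone stood at 0.88 times the CON mean and the fit without CTTN-3 gave -0.11 (adjusted p = 0.412). The direction for NFKBIA thus differed between fits, and library totals with no further scaling gave -0.04.

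None of the 6 IkB genes was called with all libraries (median log2 fold change 0.15). With the trend removed, NFKBIB and NFKBIE, which encode the cytoplasmic inhibitors IkB beta and IkB epsilon, were called higher at log2 fold changes of 0.31 (adjusted p = 0.022) and 0.37 (adjusted p = 0.041). NFKBIZ, which encodes a nuclear IkB protein, was called lower at -0.68 (adjusted p = 0.022). NFKBIZ stood at 5.31, 6.86 and 3.79 CPM in the CTTN libraries, all below the 9.08, 8.67 and 8.91 CPM of the CON libraries, and its change with all libraries was -0.74 (SE 0.20, adjusted p = 0.082). BCL3 and NFKBID, which also encode nuclear IkB proteins and share their rows with MIR8085 and AD000864.1, were not called in either fit, at 0.14 and 0.17 with all libraries and -0.04 and -0.01 with the trend removed. All 5 of these genes were named after their values were seen.

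TNFAIP3, which encodes the ubiquitin-editing enzyme A20 that ends TNF receptor signalling, was lower in each CTTN library. It stood at 10.4, 12.3 and 8.83 CPM in CTTN-1 to CTTN-3 against 14.2, 14.3 and 15.8 CPM in CON-1 to CON-3 (chr6:137823673-137883312). The highest CTTN library, CTTN-2, lay below the lowest CON library. TNFAIP3 had a log2 fold change of -0.49 (SE 0.13, 95% interval -0.80 to -0.18, adjusted p = 0.083). At 3707 bases TNFAIP3 has nearly the length of NFKB1, and the same trend of -0.16 in CTTN-1 and -0.35 in CTTN-3 runs along with its change. After removal of the trend it stood at -0.34, -0.25 and -0.39 log2 units in the 3 CTTN libraries and was called lower (log2 fold change -0.32, SE 0.08, adjusted p = 0.024). CTTN-2 alone stood at 0.83 times the CON mean, and without CTTN-3 the change was -0.38 (adjusted p = 0.062). DESeq2 called TNFAIP3 lower (-0.49, adjusted p = 0.023), with 14.4% of all tested genes. So did edgeR without CTTN-2 (-0.62, adjusted p = 0.0036), with 47.1% of all tested genes. TNFAIP3 was not called without CTTN-1 or any 1 of the CON libraries (adjusted p 0.223 to 0.278) or by limma (0.175 and 0.179).

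BIRC3, which encodes the ubiquitin ligase cIAP2 of the TNF receptor complex, had the lowest values per length. It stood at 1.92, 2.61 and 2.18 CPM in the CTTN libraries and at 4.04, 3.88 and 3.28 CPM in the CON libraries (chr11:102317450-102339403), from 68, 98 and 72 against 143, 163 and 126 fragments. No CTTN library reached the lowest CON library. The difference was -0.74 log2 units (SE 0.17, 95% interval -1.13 to -0.35, adjusted p = 0.056), a 0.60-fold level. BIRC3 was called without CTTN-3 (-0.72, adjusted p = 0.046, beside 8.55% of all genes) but not with the trend removed (-0.50, SE 0.16, adjusted p = 0.061). DESeq2 called BIRC3 (-0.74, adjusted p = 0.0062, beside 14.4% of all genes), as did edgeR with no filter beyond 1 fragment (adjusted p = 0.038). Without CTTN-2 it was called at -0.87 (adjusted p = 0.0044), with 47.1% of all tested genes. BIRC3 was not called without CTTN-1 or any 1 of the CON libraries (adjusted p 0.157 to 0.232) or by limma (0.111 and 0.120). In CTTN-2 alone it stood at 0.70 times the CON mean. Its neighbour on chromosome 11, BIRC2, which encodes the related cIAP1, stood at 36.6 to 41.2 CPM in the CTTN libraries and 41.8 to 42.8 CPM in the CON libraries, with a log2 fold change of -0.13 (SE 0.08, adjusted p = 0.302).

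CXCL1 was the member that rose. This neutrophil-attracting chemokine, a ligand of CXCR2, stood at 5.96, 5.29 and 7.28 CPM in CTTN-1 to CTTN-3, against 3.03, 3.50 and 3.49 CPM in CON-1 to CON-3 (chr4:73869393-73871242). The lowest CTTN library held 199 fragments and the highest CON library 147, in libraries of like depth. The log2 fold change was 0.88 (SE 0.15, 95% interval 0.52 to 1.25, adjusted p = 0.029 by edgeR, range over the alternatives 0.00013 to 0.154), a 1.85-fold level. CXCL1 is the shortest member at 1085 bases, and the length trend at that length was 0.28 in CTTN-1, 0.02 in CTTN-2 and 0.60 in CTTN-3. After it was taken off, CXCL1 stood 0.56, 0.65 and 0.53 log2 units above the CON mean, and the fit gave 0.57 (SE 0.12, adjusted p = 0.014), a 1.49-fold level. CTTN-2, which carried no length shift, stood at 1.58 times the CON mean. Without CTTN-3 the call held (0.75, adjusted p = 0.014), but without CTTN-1 or any 1 of the CON libraries the adjusted p lay between 0.133 and 0.154, at log2 fold changes of 0.81 to 0.92.

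CXCL8, which encodes interleukin-8, the ligand of CXCR1 and CXCR2, lay 126 kb from CXCL1 on chromosome 4 (chr4:73740506-73743716). It stood at 2.83, 1.78 and 3.34 CPM in the CTTN libraries and at 1.56, 1.69 and 1.48 CPM in the CON libraries, from 100, 67 and 110 against 55, 71 and 57 fragments. CTTN-2 exceeded the highest CON library by a small margin in CPM, and in FPKM (fragments scaled by transcript length and library depth) it lay within the CON values of 1.06, 1.40 and 1.41 at 1.33. The log2 fold change was 0.74 (SE 0.24, 95% interval 0.16 to 1.32, adjusted p = 0.114). The trend at its length of 1584 bases was 0.18 in CTTN-1 and 0.37 in CTTN-3, and after its removal CXCL8 stood 0.66, 0.17 and 0.72 log2 units above the CON mean, with a log2 fold change of 0.53 (SE 0.19, adjusted p = 0.078). Unlike CXCL1, CXCL8 in CTTN-2 stood at 1.13 times the CON mean. Without CTTN-3 the change of CXCL8 was 0.54 (adjusted p = 0.165), and without CTTN-2 it was called (0.95, adjusted p = 0.0037), in a fit that called 47.1% of all tested genes.

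CXCL16, a membrane-bound chemokine that binds CXCR6 and is released by the sheddase ADAM10, did not pass the test. It stood at 2.99, 2.87 and 3.18 CPM in the CTTN libraries, inside the span of 2.77, 3.57 and 3.99 CPM in the CON libraries (chr17:4731428-4739922). Its log2 fold change was -0.19 (SE 0.16, 95% interval -0.58 to 0.19, adjusted p = 0.418). Removing the length trend gave -0.32 (SE 0.16, adjusted p = 0.187), and leaving out CTTN-3 gave -0.23 (adjusted p = 0.429).

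**Figure D2:**
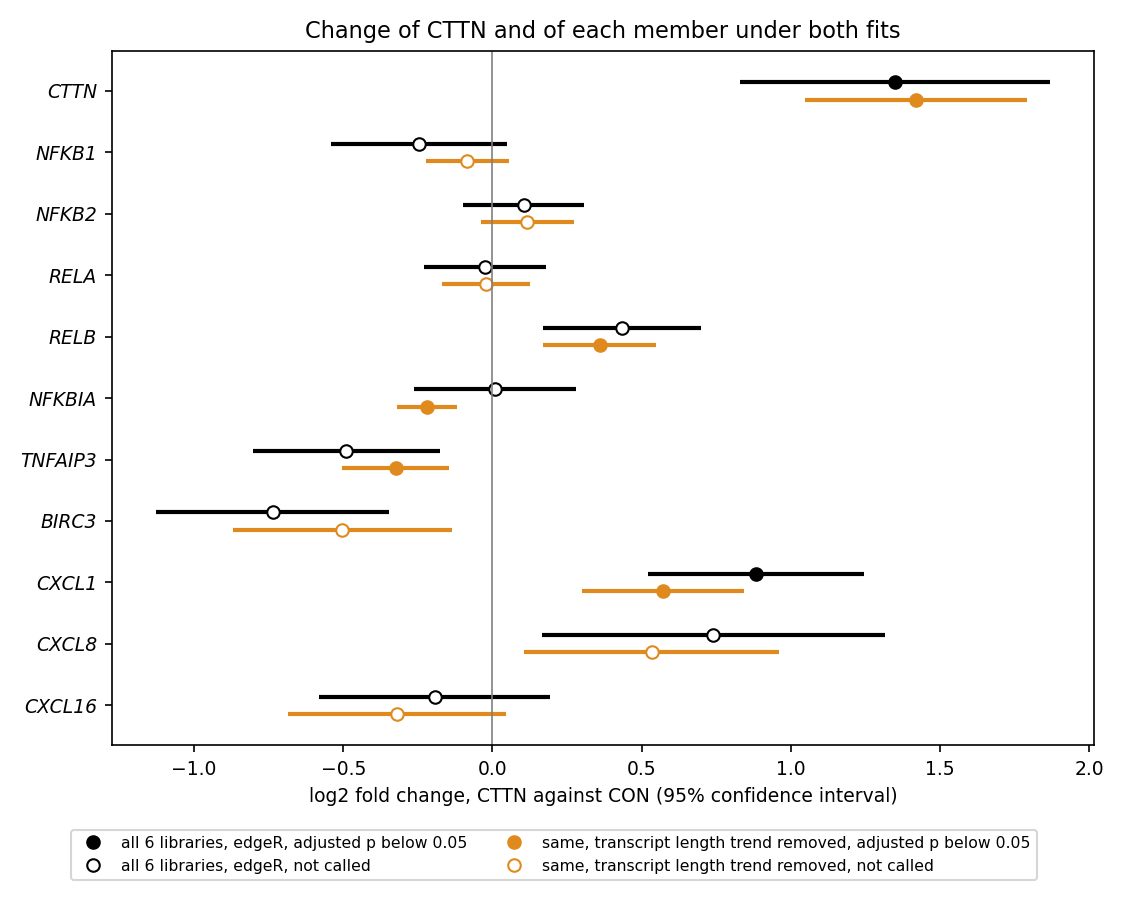
Log2 fold change of CTTN against CON (horizontal axis, with 95% confidence interval) for CTTN and the 10 members, from the edgeR fit on all 6 libraries (black) and with the length trend removed (orange); filled points have an adjusted p below 0.05. CXCL1 is filled in both fits at 0.88 and 0.57, RELB, NFKBIA and TNFAIP3 in the second fit at 0.36, -0.22 and -0.32.

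Per length, the members ranged widely. In FPKM over the 6 libraries NFKBIA averaged 119, RELA 36.1 and NFKB2 27.0, and none of these overlapped the next in the order. NFKB1 (13.3), RELB (7.04), CXCL1 (5.05), TNFAIP3 (3.31), CXCL16 (2.08), CXCL8 (1.505) and BIRC3 (0.742) followed, and from NFKB1 on each overlapped its neighbour in the order over the 6 libraries. CXCL1 averaged 6.47 ± 0.74 FPKM in CTTN and 3.62 ± 0.28 FPKM in CON (SD, n = 3). CXCL1 therefore ranked below RELB in each library but stood above TNFAIP3 in all 3 CTTN libraries, whereas CON-1 and CON-3 held more FPKM of TNFAIP3 than of CXCL1.

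Start-site groups, sets of transcripts that share a first exon, were estimated by the authors with Cufflinks and are given as a description. CXCL1 had 1 start site. TNFAIP3 had 6, and its most used one overlapped between the groups, at 1.98, 1.89 and 1.86 FPKM in the CTTN libraries and 1.92, 2.10 and 2.02 FPKM in the CON libraries. The gap between groups lay in its other start sites, of which the second held 0.62, 0.50 and 0.16 FPKM in CTTN and 0.67, 0.90 and 1.61 FPKM in CON. For BIRC3 the reverse held, since the start site with the highest mean over the 6 libraries was lower in CTTN (0.15, 0.48 and 0.12 FPKM) than in CON (1.11, 0.62 and 0.70 FPKM), and the second overlapped at 0.28, 0.15 and 0.33 against 0.11, 0.22 and 0.18 FPKM. In CTTN-1 and CTTN-3 the second BIRC3 start site was the more used, at 65.4% and 73.0% of the gene.

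The makeup of NFKB1 by start site differed between the libraries. The third start site of NFKB1, whose main transcript is 3309 bases long, held 23.5% of the gene in CTTN-1 and 70.1% in CTTN-3 but 1.44% in CTTN-2 and 0.98% to 6.02% in CON. The first, with a main transcript of 4085 bases, held 6.10% in CTTN-3 and 45.4% to 66.2% elsewhere. RELB was mostly of 1 start site (7.20, 6.27 and 8.39 FPKM in CTTN, 5.62, 5.29 and 5.19 FPKM in CON), and a transcript of 760 bases added 2.67 FPKM in CTTN-3 alone, with at most 0.02 FPKM in any other library.

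Around the members, 138 pathway genes in 11 lists were counted, of which 102 passed the filter on low counts. Of these, 4 rose and 2 fell (5.88%, beside 4.46% of all tested genes). With the length trend removed 11 were called higher and 12 lower (22.5%, beside 18.4%). Both shares are near those of all genes.

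Upstream, 2 of 9 tested receptors rose, beside 2.43% of all tested genes called higher. CD40, the receptor for CD40 ligand that drives both arms of the pathway, stood at 26.1, 22.3 and 29.8 CPM in CTTN against 17.0, 15.7 and 14.9 CPM in CON (log2 fold change 0.72, SE 0.12, adjusted p = 0.029), and every CTTN library was higher. TNFRSF12A, the receptor for TWEAK and the most abundant of its list per length, stood at 118, 102 and 146 CPM against 80.5, 78.6 and 78.8 CPM (0.62, SE 0.13, adjusted p = 0.049). Both were also called with the length trend removed, CD40 at 0.53 (adjusted p = 0.0016) and TNFRSF12A at 0.29 (adjusted p = 0.0070). Of the other 7 tested receptors none was called with all libraries, and TLR5, a receptor for flagellin, was called lower in the fit with the trend removed (-0.52, adjusted p = 0.026). CD40 and TNFRSF12A lost their call without CTTN-1 or any 1 of the CON libraries, at adjusted p from 0.118 to 0.221.

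Of 12 ligand genes of these receptors 3 were tested and none was called with all libraries. TNF stood at 5.32 to 7.37 CPM in CTTN and 4.86 to 7.04 CPM in CON (log2 fold change 0.13, SE 0.18, adjusted p = 0.624). TNFSF12, the TWEAK gene, whose row also holds TNFSF13, had the highest level per length of the list at means of 20.2 FPKM in CON and 21.9 FPKM in CTTN. Its groups overlapped in CPM, with a log2 fold change of -0.03 (adjusted p = 0.848), and with the trend removed it was called lower (-0.18, adjusted p = 0.049). CD40LG, the CD40 ligand, held 16, 22 and 10 fragments in CTTN against 8, 6 and 5 in CON, higher in every CTTN library at under 1 CPM (log2 fold change 1.43, SE 0.39, adjusted p = 0.083), and was named after its values were seen. IL1A and IL1B had no fragment in any library, which allows up to 3 fragments per library, or 0.073 to 0.086 CPM.

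No kinase or adaptor between receptor and IkB passed the test with all libraries. Of the 12 IkB kinases and upstream kinases none was called (median log2 fold change -0.13), and TAB2, the highest of them per length in a row shared with AL031056.1, stood at -0.36 (SE 0.11, adjusted p = 0.103), or -0.15 (adjusted p = 0.042, called lower) with the trend removed. None of the 14 TRAF, IAP and LUBAC adaptors was called in either fit, with a median log2 fold change of -0.06, or 0.00 with the trend removed. RBCK1, the HOIL-1 subunit of LUBAC, led them in FPKM (0.21, SE 0.11, adjusted p = 0.223). Of the 12 tested negative feedback genes none was called with all libraries, and TAX1BP1, an adaptor of A20 and the highest per length, stood at -0.10 (SE 0.09, adjusted p = 0.421). With the trend removed OTUD7B (0.32, adjusted p = 0.022) and N4BP1 (0.22, adjusted p = 0.031) were higher while TNFAIP3 was lower. The direction of OTUD7B and N4BP1 differed between fits. With all libraries OTUD7B stood at -0.11 (adjusted p = 0.597) and N4BP1 at -0.09 (adjusted p = 0.658).

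Among 18 chemokine genes, 8 were tested and 2 rose, beside 2.43% of all tested genes called higher. Beside CXCL1 this was CCL2, which attracts monocytes. CCL2 stood at 4.83, 4.34 and 6.16 CPM in CTTN against 2.57, 3.22 and 2.94 CPM in CON, with no overlap (log2 fold change 0.81, SE 0.17, adjusted p = 0.049). CCL2 is short at 753 bases, and with the trend removed its change was 0.43 (SE 0.14, adjusted p = 0.062), no longer called. It was not called on the deposited scale either (adjusted p = 0.0502). CX3CL1, a membrane-bound chemokine and the highest of the list per length, stood at 22.0 to 24.9 CPM in CTTN and 28.1 to 31.0 CPM in CON (-0.34, SE 0.09, adjusted p = 0.086).

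The cluster of 6 CXC genes around CXCL1 on chromosome 4 was otherwise near silent. CXCL2, CXCL3, CXCL5 and CXCL6 had at most 5 fragments in any library and were not tested, and the 10 untested chemokines reached at most 0.198 CPM. CXCL2 and CXCL3 are close copies of CXCL1, and how shared reads were counted is not given in the sources used here, so the 107 to 240 fragments of CXCL1 are given as counted. Of 6 tested genes for chemokine receptors and sheddases none was called with all libraries (median -0.33). CXCR2, the receptor of CXCL1 and CXCL8, stood at 0.637 to 0.989 CPM in CTTN and 1.07 to 1.58 CPM in CON (-0.53, SE 0.26, adjusted p = 0.201), and ADAM10, the highest per length, at -0.23 (SE 0.13, adjusted p = 0.233). With the trend removed CXCR4 (-0.60, adjusted p = 0.019) and CX3CR1 (-0.68, adjusted p = 0.032) were lower.

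Of 16 tested inflammatory NF-kB targets 2 fell and none rose with all libraries, beside 2.03% of all tested genes called lower. LCN2, a siderophore-binding lipocalin, stood at 19.0, 17.4 and 22.3 CPM in CTTN and 37.4, 32.2 and 33.4 CPM in CON (log2 fold change -0.81, SE 0.12, adjusted p = 0.017). At 803 bases LCN2 is one of the short genes, whose trend ran upward in CTTN-1 and CTTN-3, and with the trend removed its change was -1.16 (SE 0.09, adjusted p = 0.00022). LCN2 thus moved opposite to CXCL1 at a like length. TNFAIP2, a TNF-induced gene, stood at 31.5, 34.7 and 26.1 CPM against 47.6, 45.7 and 48.7 CPM (-0.62, SE 0.12, adjusted p = 0.035), and at -0.69 (adjusted p = 0.0067) with the trend removed. In FPKM the groups of TNFAIP2 overlapped, at 18.3, 16.0 and 23.4 in CTTN against 24.5, 22.2 and 21.3 in CON, and the limma fits on FPKM gave -0.24 and -0.25 (adjusted p = 0.303 and 0.297). Library totals with no further scaling also took its adjusted p past the threshold, to 0.056. CCL2, LCN2 and TNFAIP2 lost their calls without CTTN-1 or any 1 of the CON libraries, at adjusted p from 0.096 to 0.196.

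The rest of the targets did not pass the test with all libraries. SOD2, the mitochondrial superoxide dismutase, in a row shared with SOD2-OT1, was the highest inflammatory target per length and stood at 188 to 196 CPM in CTTN and 186 to 199 CPM in CON. With the trend removed CSF1 was higher (0.50, adjusted p = 0.010) and ICAM1 lower (-0.21, adjusted p = 0.038). Of 13 tested survival targets none was called with all libraries, and MYC, the highest per length, stood at -0.03 (SE 0.07, adjusted p = 0.755). Removing the trend called JUNB (0.47, adjusted p = 0.020) and EGR1 (0.78, adjusted p = 0.014) higher and ATF3 lower (-0.36, adjusted p = 0.0495).

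**Figure D3:**
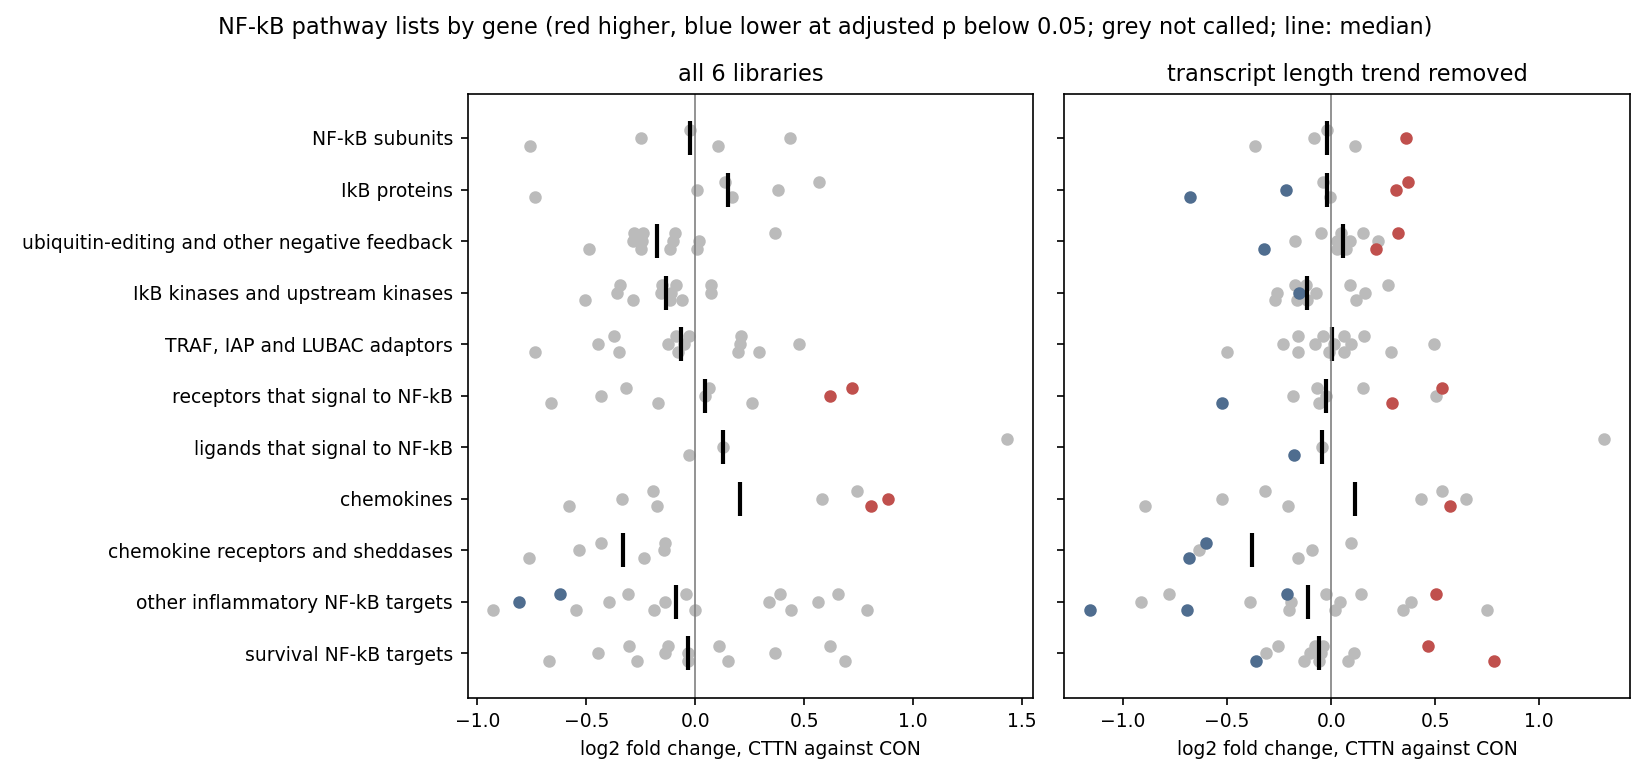
Log2 fold change of CTTN against CON (horizontal axis) of each tested gene in the 11 pathway lists (rows), with all 6 libraries (left) and with the length trend removed (right); red and blue points were called higher and lower, grey points were not called and the line is the list median. With all libraries 4 points are red and 2 are blue, and with the trend removed 11 are red and 12 are blue.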

How the data were processed

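RNA of 3 CON and 3 CTTN samples of SKBR3 was sequenced in pairs from stranded poly(A) libraries. Per the labels, reads were demultiplexed with bcl2fastq 2.20.0, trimmed, aligned with STAR and quantified with Cufflinks on GRCh38; the study's methods name hg19, but the deposited coordinates are those of GRCh38. The authors deposited gene signal values, which are fragment counts divided by a library scale, and FPKM for genes, transcripts and start sites. Multiplying by the deposited scale (0.902 to 1.15) gave whole fragments for 100% of positive values (tolerance 0.01 fragments, or 2e-05 relative). The main test ran on these recovered fragments, and the deposited scale, first planned as the main one, became an alternative.

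edgeR 4.0.16 (quasi-likelihood test, TMM, filterByExpr, Benjamini-Hochberg over 14409 genes, calls at adjusted p below 0.05) compared CTTN with CON. DESeq2 1.42.0 and limma 3.58.1 (R 4.3.3) were alternatives, as was a lowess trend (span 0.3) of each library on transcript length. Nothing says that libraries came from separate cultures, so p-values measure only the spread between these samples.

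The control columns are named CON-1 to CON-3 in the deposited sample table, but the labels give them column numbers shifted by 1. Control numbers are therefore used as library names, and the main test pairs no libraries. No value column was left unmapped. The members and lists were chosen with earlier results of these data known. Members and CTTN were always named, and of each list every called gene (at most 4) and the one with the highest mean FPKM. The same rule for the fit with the trend removed was added after its values were seen. REL, BIRC2, CXCR2, TNF, IL1A, IL1B and the CXC cluster were named beside members for their roles, and CDH5 for its change. BCL3, NFKBID and CD40LG were named after their values were seen. Intervals cover counting error and library spread under the edgeR model; depth was 34887069 to 41279816 fragments. Protein sequences were not used here.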

Additional observations from a re-analysis of the deposited data

How the results depend on the processing

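The count of genes called moved from 643 to 2074 with DESeq2, 185 and 180 with limma on log2(FPKM + 1) and log2(FPKM + 0.1), 976 with no filter beyond 1 fragment, 2653 with the transcript length trend removed, and 15 to 6925 when 1 library was left out. Members called moved from 1 to 4, 0, 1, 2, 4 and 0 to 6 in the same order, and pathway list genes from 6 to 22, 1, 2, 12, 23 and 0 to 53. Genes called numbered 15 to 32 without CTTN-1 or any 1 of the CON libraries, 1252 without CTTN-3 and 6925 without CTTN-2. The cause of these differences was not tested. DESeq2 size factors, library totals, a minimum of 10 fragments in 3 libraries and the deposited scale kept all 3 counts within 1.5 times. CTTN kept its direction throughout (log2 fold change 1.10 to 1.57 without 1 library).

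Same-numbered CTTN and CON libraries did not deviate together (correlations of 0.02, 0.08 and -0.19). These correlations were taken with the length shift left in, on 3 libraries per group with control numbers in doubt. They cannot decide whether same-numbered samples were paired. With the replicate block, 105 genes, 0 members and 0 pathway list genes were called at an adjusted p below 0.05, and CTTN stood at 1.30 (adjusted p = 0.059). NFKBIA turned from 0.01 to -0.044 with library totals, -0.0151 and -0.0152 in the limma fits, -9.1e-05 with no filter, -0.0012 with the replicate block, -0.22 with the length trend removed and -0.109 to 0.0913 without 1 library. RELA ranged from -0.0684 to 0.0261 without 1 library. The other 8 members and CD40, TNFRSF12A, CCL2, TNFAIP2 and LCN2 kept their direction under all 16 alternatives. The limma fits called LCN2 but not CD40, TNFRSF12A, CCL2 or TNFAIP2, and CXCL1 with a pseudocount of 0.1 but not of 1. No member shares a row, so the sum of isoforms planned for such rows was not run. BIRC3, CXCL8 and CXCL16 rest on 55 to 163 fragments per library. CXCL8 in CTTN-2 stood at 1.78 CPM, beside at most 1.69 CPM in CON, and in FPKM it lay within the CON values. CTTN-2 alone was not tested against CON.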

Other observations

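Among the 3 CTTN libraries the level of CTTN ran opposite to the length shift: CTTN-2 held 1011 CPM of CTTN with a shift of 0.01 in the shortest genes, CTTN-1 held 793 CPM with 0.32, and CTTN-3 held 520 CPM with 0.76. RELB, CXCL1 and CXCL8 were each highest in CTTN-3 (17.0, 7.28 and 3.34 CPM) and lowest of the 3 in CTTN-2 (13.4, 5.29 and 1.78 CPM). With the length trend taken off, CXCL1 was instead highest in CTTN-2 (0.65 log2 units above CON, beside 0.56 and 0.53), while CXCL8 stayed lowest there (0.17, beside 0.66 and 0.72). RELB also stayed lowest in CTTN-2 (0.28) and highest in CTTN-3 (0.49), with 0.29 in CTTN-1. These are values of 3 libraries and carry no test.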
